A study of Sus scrofa with 23 samples.

Results

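The genes that make proteins from mRNA in the pig embryo were followed here as 71 translation factors and tRNA synthetases, among 8603 genes of the deposited expression table. They were taken by symbol: names beginning EIF or EEF and a digit, ETF1, names beginning GSPT, and aminoacyl-tRNA synthetases named by 1 to 3 letters and ARS, without EIF1AY. The rule uses names alone. The 22 other symbols of the annotation that it fits, among them EEF1A2, EEF2K, EIF4E1B and GSPT2, were absent from that table and so could not be analysed. PolyA RNA had been sequenced in 23 libraries, 1 for each condition and each from a pool of oocytes or embryos, 8 of the group IV-D, 8 of NT-D and 7 of NT-LW. In the IV-D group, embryos of Duroc sows inseminated by 1 Duroc boar were flushed at each stage from the 1-cell embryo to the blastocyst, and ovulated oocytes came from 2-year-old Duroc sows. In the NT-D and NT-LW groups, nuclei of ear fibroblasts from 1 Duroc boar and 1 Laiwu boar, each 1 year old, were placed in enucleated oocytes, and the clones were grown in culture. The recipient oocytes, labelled Duroc but from hybrid sows by the study's text, came from slaughterhouse ovaries and were matured in vitro, and their 1 library, counted with NT-D, precedes the 1-cell stage of both cloned groups. The Duroc donor boar also sired the IV-D embryos. The clones are all male and the nuclei of each cloned group share 1 genotype, whereas the IV-D pools are of mixed sex, and in vivo growth against in vitro culture cannot be told apart from cloning. Blastocysts were cut into IT, the part holding inner cell mass and trophectoderm, and TE, the part with trophectoderm alone.

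Translation begins when initiation factors bring the initiator tRNA to the small ribosomal subunit (eIF2, recharged by eIF2B), bind the mRNA cap and unwind its leader (the eIF4 factors), hold the complex together (eIF3) and pick the start codon (eIF1 and eIF1A). Elongation factors then move the ribosome along the message, and release factors free the chain at a stop codon. Synthetases load each tRNA with its amino acid, with separate nuclear genes for most cytosolic (names ending in 1) and mitochondrial (ending in 2) enzymes. The egg carries a large stock of ribosomes and maternal mRNA, and the pig embryo starts large-scale transcription of its own genome at about the 4-cell stage.

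Expression is given as FPKM, fragments scaled by gene length and by library depth. Levels can be compared between genes only as far as the length used for each gene matches its transcripts, which was not checked. Depth, recovered from the steps between FPKM values, was 14952784 to 22991067 fragments per library, and 3 fragments on a gene of 1 kb are worth 0.130 to 0.201 FPKM. A gene counts as higher or lower (risen or fallen) where the difference in log2(FPKM + 1) between a pair of libraries exceeds 1 and the larger FPKM is 1 or more. With 1 library per condition there is no replicate error and no p-value between conditions, so each count is set beside the percent of all 8603 genes that passed the same rule in the same direction. The table is by its name one of differentially expressed genes, so that percent is over selected genes. Counting intervals on folds are exact 95% binomial intervals of the fragments and cover counting error alone, and the fragments were not marked as single molecules. FPKM is a share of a library, so less RNA of a gene per cell and fewer cells that express it cannot be told apart. Of the marker lists, 6 of 8 oocyte genes were in the table and summed to 1622 to 3063 FPKM in the oocyte, 1-cell and 2-cell libraries, falling to at most 4.36 in IT and TE, while 7 of 8 trophectoderm genes (CDX2 was not among them) reached at least 1261 in every IT and TE library. The 5 fibroblast genes in the table summed to 65.02 FPKM in the IV-D 1-cell library, with S100A4 at 39.9, although that library holds no donor cells by its label, against 1.22 in the IV-D oocytes and 66.97 to 144 in the 6 cloned libraries of 1-cell, 2-cell and 4-cell embryos. From 8 cumulus cell genes HAS2 alone was in the table, at most 18.8 FPKM.

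Most translation genes were low in oocytes and the first cleavage stages and high from the 8-cell stage on. For 45 of 71 genes each of the 12 libraries from 8-cell to TE lay above each of the 8 libraries from oocyte to 2-cell, against 23.7% of all genes. For 5 genes, EIF2AK2, EIF4E3, EIF4ENIF1, EIF5B and RARS2, the order was the opposite, against 17.3% of all genes, and for the other 21 genes the early and late libraries overlapped. Without the IV-D 1-cell library the counts were 46 and 5, against 24.2% and 18.2%. In IV-D the median of the 71 genes was 4.13 FPKM in oocytes, 3.55 at the 2-cell, 10.9 at the 4-cell and 43.1 at the 8-cell stage, while that of all genes was between 3.37 and 6.71 in the 8 IV-D libraries. Their share of all fragments was 0.898% in IV-D 2-cell embryos and 2.45% in IV-D 8-cell embryos. Among the 71 genes the most abundant transcript was EIF1 in 22 of 23 libraries and EIF5B in the NT-D 1-cell library.

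**Figure D1:**
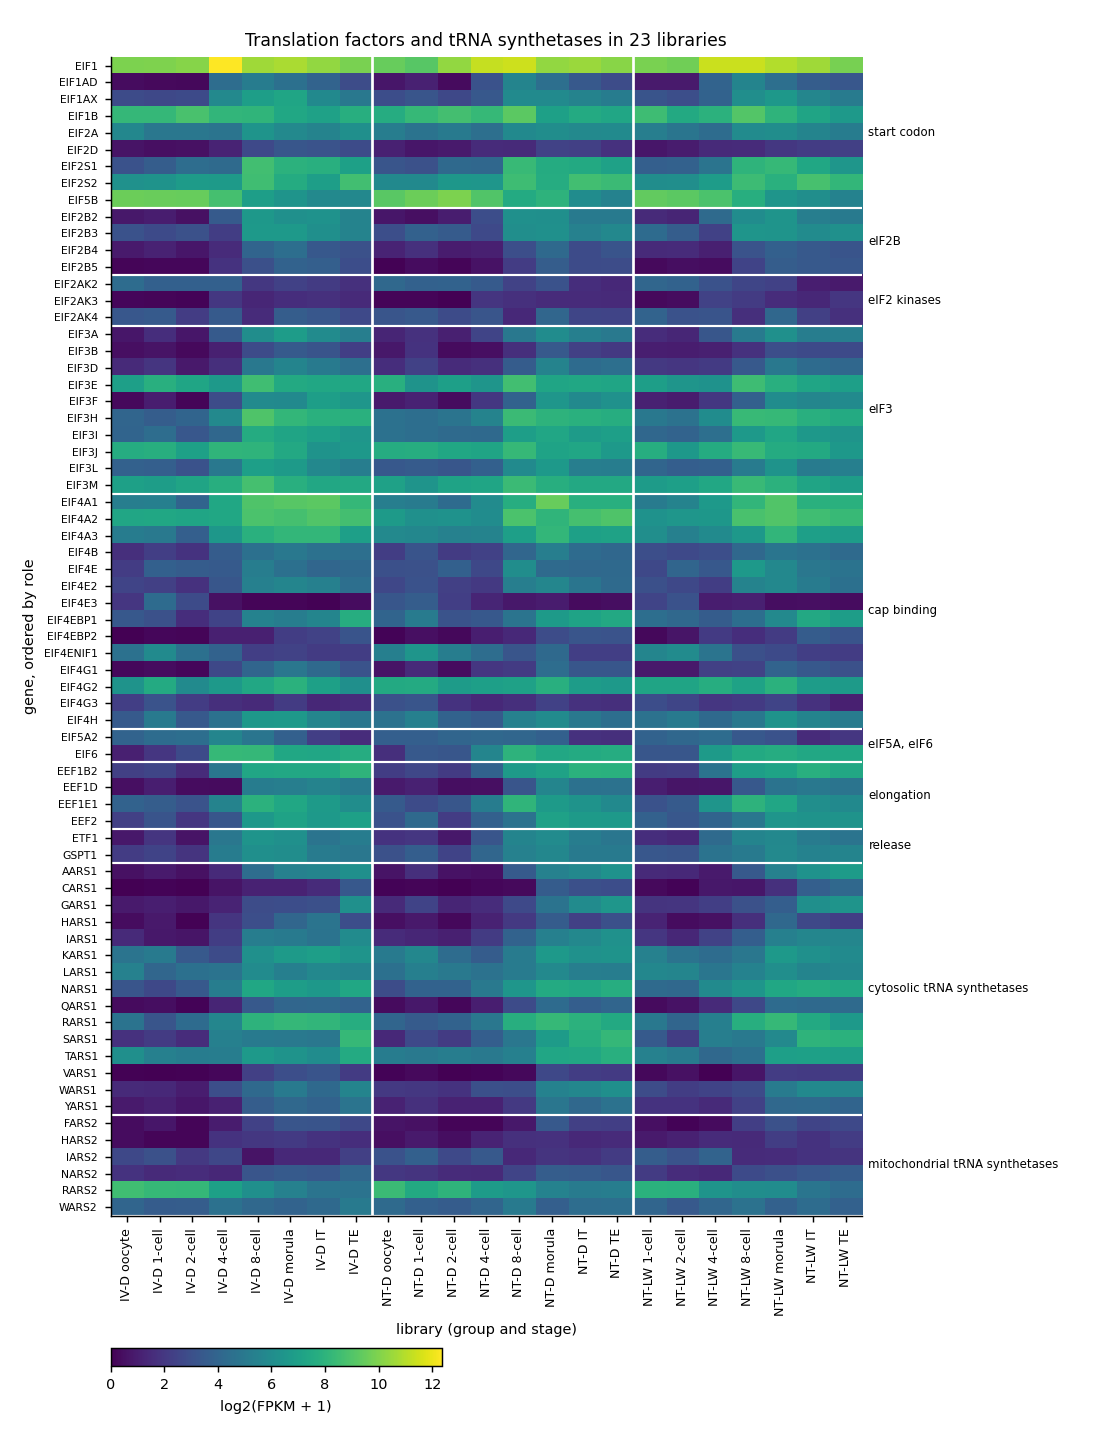
Level of 69 of the 71 genes (rows, ordered by role) in each of 23 libraries (columns, by group and stage), as log2(FPKM + 1) on the colour scale. Most rows are dark up to the 4-cell column of each group and lighter from the 8-cell column on, while RARS2 and EIF5B run the other way.

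Before the 4-cell stage the IV-D transcripts of this machinery moved about as often as those of all genes. From oocyte to 1-cell 6 genes rose and 2 fell, where 10.7% and 5.95% of all genes did, and 5 of the 6 belonged to the cap-binding complex and its partners: EIF4E, EIF4E3, EIF4ENIF1, EIF4G2 and EIF4H. From 1-cell to 2-cell 1 gene rose, RARS1, and 15 fell, against 5.14% and 19.2% of all genes, and 7 of those 15 were again of that group. Both steps rest on the IV-D 1-cell library with its fibroblast transcripts, whose part in them was not tested. Median-ratio scaling turned the split of the second step to 6 higher and 5 lower (13.5% and 10.2% of all genes). With that library left out, oocyte against 2-cell embryos gave 3 genes higher and 5 lower, where 4.54% and 11% of all genes were.

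At the 2-cell to 4-cell step of IV-D, EIF6, ETF1 and EIF1AD rose most, EIF6 to 306 FPKM and 52.5-fold higher (counting interval 46.4 to 59.5). In all 33 of 71 genes rose and 2 fell, EIF4E3 and RARS2, where 29.2% of all genes rose and 10.4% fell. The risers held both release factors, 3 of 4 genes of the elongation group, 5 of 10 eIF3 subunits and 6 of 14 genes of the cap-binding complex and its partners. They also held 7 of 16 cytosolic synthetases and 1 of 7 mitochondrial ones. The elongation group is EEF1B2, EEF1D and EEF2 with EEF1E1, which sits in the synthetase complex. At 4-cell to 8-cell 48 genes rose and 6 fell, with 32.6% and 26.2% of all genes doing so, and the median difference was 1.51 in log2(FPKM + 1) against 0.17 over all genes. This second step took in 14 of 16 cytosolic synthetases, 8 of 10 eIF3 subunits, all 4 eIF2B subunits in the table and all 4 genes of the elongation group. Under median-ratio scaling 9 of these risers no longer passed the rule: EIF1AX, EIF2B5, EIF4A3, EIF4B, EIF4G1, HARS1, LARS1, TARS1 and WARS1. EIF4B was lost also with the FPKM of each library set to 1 sum. The 6 that fell were EIF1, EIF5B, EIF4ENIF1, EIF2AK2, EIF2AK4 and IARS2. From 8-cell to morula 3 rose and 2 fell, against 10.5% and 11.6% of all genes, or 3 and 5 (10.4% and 15.6%) with the FPKM of each library set to 1 sum, and 5 and 2 (13.3% and 14.7%) with 0.1 added in place of 1. Scaling the libraries by their median ratio changed the 2-cell to 4-cell split to 26 higher and 10 lower, with 18.5% and 24.4% of all genes, and moved the median of all genes from 0.33 to -0.12.

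In clones the rise was spread over 3 steps, the last of them from 8-cell to morula. In NT-D 18 genes rose and 3 fell from 2-cell to 4-cell (14.6% and 7.07% of all genes), 44 rose and 5 fell from 4-cell to 8-cell (28.5% and 26.1%), and 32 rose and 8 fell from 8-cell to morula (29.3% and 11.1%). In NT-LW the same steps gave 19 higher and 5 lower (14.6% and 17.5% of all genes), 34 and 4 (25.6% and 23.4%), and 23 and 3 (20.1% and 11.1%). Cytosolic synthetases made up 14 of the 32 genes that rose from 8-cell to morula in NT-D and 10 of the 23 in NT-LW, where IV-D had 1, HARS1. EEF2, EEF1D, EIF3F, EIF3D and EIF4G1 also rose at this step in each cloned group, EEF1D in NT-LW not under median-ratio scaling. Under median-ratio scaling NT-D had 14 higher and 7 lower from 2-cell to 4-cell (11.6% and 11.9% of all genes), and the 8-cell to morula counts were 24 higher and 14 lower in NT-D (18% and 17.5% of all genes) and 16 and 7 in NT-LW (13.3% and 15.6%). The NT-D morula library still held oocyte transcripts, 172 FPKM over the 6 oocyte markers against 6.88 in IV-D and 28.3 in NT-LW morulae. In 8-cell embryos these markers summed to 193 in NT-D, 239 in NT-LW and 19.4 in IV-D. Their part in these counts was not tested.

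**Figure D2:**
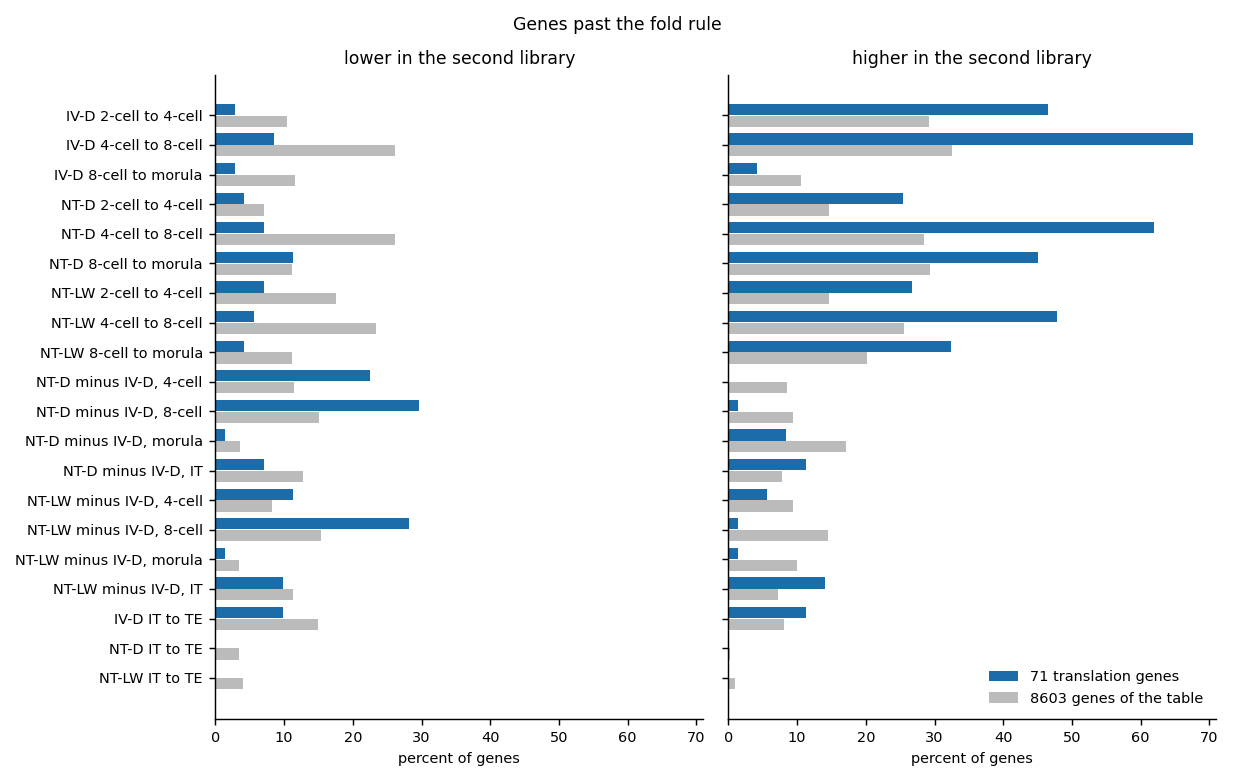
Percent of the 71 translation genes (blue) and of all 8603 genes (grey) past the fold rule, lower (left panel) and higher (right panel) in the second library of each comparison. For IV-D 4-cell to 8-cell the blue bar stands for 48 of 71 genes higher, and for the cloned 8-cell libraries 21 (NT-D) and 20 (NT-LW) of 71 lower than IV-D.

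Set against IV-D at the same stage, genes that were lower in clones outnumbered those that were higher in 4-cell and in 8-cell embryos and few of the 71 passed the rule at the morula stage. Both cloned groups were compared with the same IV-D libraries. At the 4-cell stage NT-D had 0 genes higher and 16 lower (8.5% and 11.5% of all genes), with 6 of the cap-binding complex and its partners and both release factors among the 16, and NT-LW had 4 higher and 8 lower (9.45% and 8.26%), shares near those of all genes. Oocyte markers summed to 1556 and 1489 FPKM in the NT-D and NT-LW 4-cell libraries against 403 in IV-D, and fibroblast markers to 126 and 144 against 5.14, and their part was not tested. At the 8-cell stage 1 gene was higher and 21 were lower in NT-D (9.38% and 15.1%), and 1 was higher and 20 were lower in NT-LW (14.5% and 15.3%). The median difference was -0.63 for NT-D 8-cell embryos and -0.57 for those of NT-LW, against -0.06 and 0.02 over all genes. Cytosolic synthetases gave 6 of the lower genes in NT-D and 8 in NT-LW, of 16, and eIF3 subunits 5 and 4, of 10. Oocyte markers summed to 193 and 239 FPKM in the cloned 8-cell libraries and 19.4 in IV-D, and the fibroblast markers to 27.5 and 27.8 against 1.65, and their part in these differences was not tested. With median-ratio scaling 4 genes were higher and 13 lower in NT-D 8-cell embryos (11.8% and 11% of all genes), and with each library set to 1 sum 0 and 31 (8.11% and 22.4%). For NT-LW 8-cell embryos these scalings gave 2 and 18 (14.6% and 13%), and 2 and 31 (12.7% and 22.4%). At the morula stage 6 genes were higher and 1 lower in NT-D (17.1% and 3.55%), and 1 and 1 in NT-LW (10% and 3.5%). Median-ratio scaling gave 6 and 3 in NT-D morulae (11.3% and 5.71%) and 0 and 2 in NT-LW (5.43% and 4.92%). None of the genes called above changed direction in any of these comparisons under either of the 2 other scalings, but some no longer passed the rule. Under median-ratio scaling these were EIF1, EIF4A3 and EIF4H in NT-D 4-cell embryos, EIF1AX, EIF2B4, EIF3A, EIF3B, EIF3L, EIF4H and KARS1 among those of NT-D 8-cell embryos, AARS1 and EIF3B in NT-LW 8-cell embryos and EIF4E in NT-LW morulae, and with 1 sum EIF1B in NT-D 8-cell embryos.

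**Figure D3:**
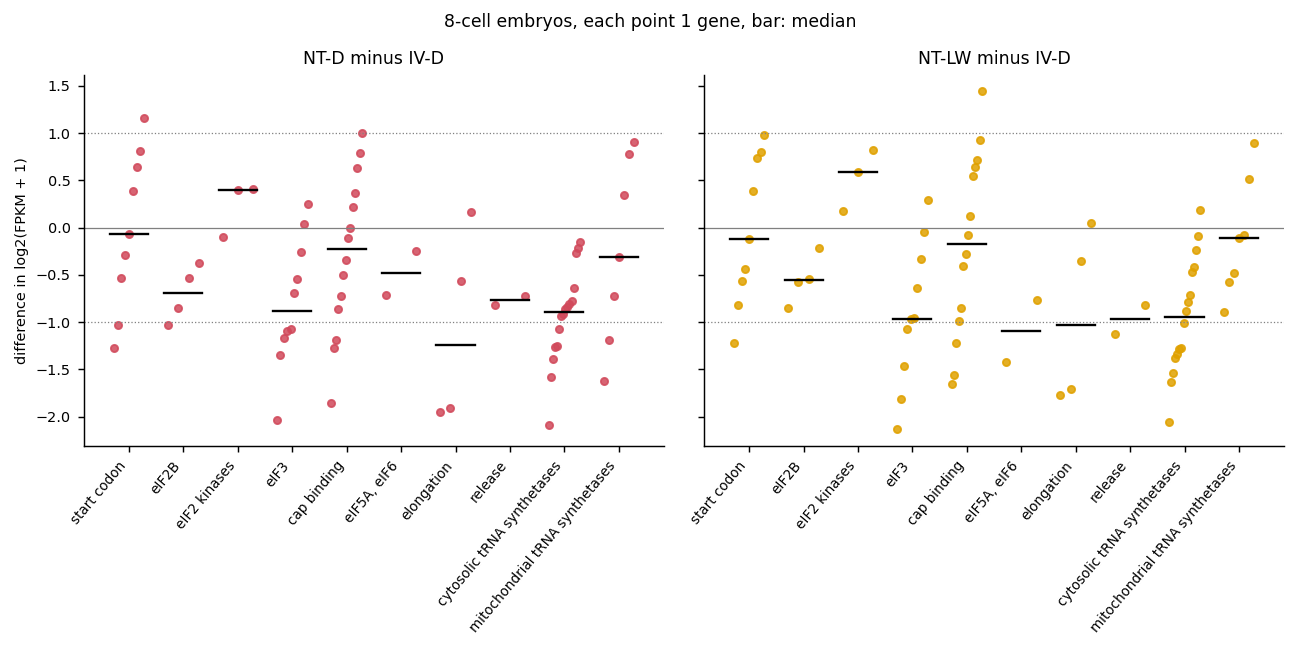
Difference in log2(FPKM + 1) between cloned and IV-D 8-cell embryos for each of the 71 genes (points), by role, NT-D on the left and NT-LW on the right. Black bars are medians of a role and dotted lines the limits of the fold rule at 1 and -1, below which lie 2 of 4 elongation points and 5 (NT-D) and 4 (NT-LW) of 10 eIF3 points.

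In the gene-by-gene account that follows, values are FPKM in the order oocyte, 1-cell, 2-cell, 4-cell, 8-cell, morula, IT and TE, starting from the 1-cell stage in NT-LW. Of the start codon factors, EIF1, which keeps the scanning ribosome from stopping early (chr12:20974498-20977075, minus strand, RefSeq annotation of Sscrofa11.1), peaked in IV-D 4-cell embryos. EIF1 read 974, 1000.2, 1089, 5247, 1564, 1782, 1327 and 951 in IV-D, 723, 575, 1288, 2439, 2745, 1311, 1461 and 1157 in NT-D, and 935, 826, 2640.1, 2604, 1944, 1535 and 900.2 in NT-LW. The 4-cell value made up 62.1% of the summed FPKM of the 71 genes in that library, and NT-D stood 2.15-fold lower (counting interval 2.13 to 2.18) there, a call lost under median-ratio scaling. Its close relative EIF1B did not share the peak. EIF1B read 298, 299.999, 441, 282, 271, 163, 135 and 211 in IV-D, 199, 309, 401, 306, 605, 130.4, 187 and 159 in NT-D, and 370.1, 179, 242, 533, 264, 150.02 and 97.2 in NT-LW. EIF1B was 2.24-fold higher (counting interval 2.16 to 2.31) in NT-D than in IV-D 8-cell embryos, a call lost with each library set to 1 sum, and because the copies are alike, the split of reads between EIF1 and EIF1B is uncertain. EIF1AX, eIF1A itself, lies on the X chromosome (chrX:16429625-16449581). EIF1AX read 6.13, 5.48, 5.89, 54.8, 122, 151, 57.5 and 30.4 in IV-D, 6.54, 8.54, 5.40, 9.41, 59.2, 60.3, 44.4 and 35.8 in NT-D, and 8.24, 6.85, 14.01, 68.5, 94.98, 49.7 and 33.9 in NT-LW. IV-D stood above both clones from the 4-cell to the morula stage, NT-D being 5.82-fold lower (counting interval 5.35 to 6.33) at the 4-cell stage and NT-LW 3.91-fold lower (counting interval 3.66 to 4.17), and sex and embryo source cannot be told apart for this gene, which also shares sequence with its copy on the Y chromosome.

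EIF1AD, a small relative of eIF1A, was at most 1.18 FPKM up to the 2-cell stage. EIF1AD read 0.309, 0.229, 0.210, 20.5, 35.4, 22.5, 14.2 and 6.26 in IV-D, 0.654, 1.18, 0.280, 7.68, 46.7, 21.8, 9.80 and 6.36 in NT-D, and 0.869, 0.876, 14.2, 46.5, 21.997, 11.6 and 9.08 in NT-LW. EIF2S1 and EIF2S2, the alpha and beta subunits of eIF2, rose together at the 8-cell stage in all 3 groups. EIF2S1 read 7.79, 11.3, 20.5, 18.4, 396, 241, 218 and 131 in IV-D, 8.54, 7.39, 17.8, 16.3, 324, 192, 181 and 133 in NT-D, and 12.3, 13.2, 25.6, 266, 308, 166 and 87.7 in NT-LW. EIF2S2 read 73.998, 80.4, 108, 106, 384, 192, 120.4 and 395 in IV-D, 57.7, 56.9, 90.8, 88.4, 365, 199, 392 and 337 in NT-D, and 65.1, 68.5, 112, 353, 226, 430.5 and 290.4 in NT-LW. The 8-cell levels of EIF2S1 and EIF2S2 lay within 266 to 396 FPKM, and in blastocysts EIF2S2 was 3.28-fold higher (counting interval 3.20 to 3.36) in TE than in IT of IV-D but high in both parts of the clones. EIF5B, the GTPase that joins the large subunit, was highest before the 4-cell stage. EIF5B read 769.8, 728, 718, 416, 121, 83.01, 55.7 and 53.3 in IV-D, 588, 775, 961, 521, 190.1, 253, 63.9 and 44.2 in NT-D, and 658, 612, 460.02, 212, 85.1, 68.8 and 43.4 in NT-LW. It fell at the 8-cell stage in each group. The NT-D morula was at 253 FPKM, above the 190.1 of NT-D 8-cell embryos and 3.05-fold higher (counting interval 2.97 to 3.14) than the IV-D morula. That NT-D library had raised oocyte markers, whose part was not tested. EIF2A and EIF2D, which deliver initiator tRNA by other routes, ranged from 19.6 to 83.4 and from 0.402 to 8.78 FPKM.

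All 4 eIF2B subunits in the table, parts of the factor that reloads eIF2 with GTP, rose at 4-cell to 8-cell in IV-D, in NT-D and in NT-LW, EIF2B5 in IV-D not under median-ratio scaling. EIF2B2 read 0.753, 1.01, 0.486, 10.1, 95.3, 72.95, 76.5 and 45.2 in IV-D, 0.690, 0.432, 0.964, 6.64, 73.4, 69.9, 32.8 and 33.1 in NT-D, and 1.78, 1.41, 18.1, 63.6, 84.1, 38.5 and 33.6 in NT-LW. EIF2B3 read 7.80, 5.83, 7.23, 3.82, 99.1, 97.4, 71.3 and 45.6 in IV-D, 6.75, 13.2, 10.8, 5.57, 68.1, 72.7, 41.96 and 53.8 in NT-D, and 18.7, 11.5, 4.32, 85.2, 82.6, 60.8 and 71.9 in NT-LW. EIF2B3 had the steeper step, 25.99-fold higher (counting interval 20.1 to 34.2) in IV-D 8-cell than in 4-cell embryos, while EIF2B2 had begun to rise at the 4-cell stage. EIF2B4 read 0.878, 1.28, 0.702, 1.83, 15.03, 20.7, 9.76 and 7.30 in IV-D, 1.35, 2.32, 0.892, 1.12, 6.83, 17.7, 6.10 and 8.16 in NT-D, and 1.80, 1.85, 1.15, 7.90, 12.7, 9.88 and 8.31 in NT-LW. EIF2B5, the catalytic subunit, went from 2.47 to 7.18 FPKM in IV-D, from 0.503 to 3.55 in NT-D and from 0.346 to 4.62 in NT-LW. The kinases that switch eIF2 off followed other courses. EIF2AK2 (PKR, which senses double-stranded RNA) fell at the 8-cell stage in IV-D and NT-D, and in NT-LW the change from 7.70 to 5.05 did not pass the rule. EIF2AK2 read 19.5, 13.04, 12.8, 12.7, 3.03, 4.32, 3.49 and 2.23 in IV-D, 17.3, 13.3, 13.7, 10.4, 4.35, 7.59, 2.07 and 1.72 in NT-D, and 16.1, 13.7, 7.70, 5.05, 4.29, 1.02 and 0.878 in NT-LW. EIF2AK4 (GCN2, which senses uncharged tRNA) dipped at the 8-cell stage of all 3 groups and was back at the morula. EIF2AK4 read 9.12, 10.2, 3.55, 10.5, 1.84, 11.5, 9.08 and 5.62 in IV-D, 8.58, 10.1, 5.99, 8.68, 1.65, 16.2, 4.98 and 4.72 in NT-D, and 14.2, 7.53, 8.20, 2.20, 16.7, 4.09 and 2.28 in NT-LW. In IV-D the 8-cell level was 5.70-fold lower (counting interval 4.99 to 6.54) than at the 4-cell stage, and none of the 8-cell libraries overlapped the 4-cell or morula libraries. EIF2AK3 (PERK, the sensor of unfolded protein in the endoplasmic reticulum) appeared at the 4-cell stage. EIF2AK3 read 0.143, 0.113, 0.0818, 3.07, 1.499, 2.10, 2.27 and 1.81 in IV-D, 0.129, 0.116, 0.0260, 2.69, 2.29, 1.87, 1.86 and 1.79 in NT-D, and 0.253, 0.337, 4.40, 3.41, 1.96, 1.56 and 2.90 in NT-LW. It stayed under 5 FPKM in every library.

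The 10 eIF3 subunits, the scaffold on the small subunit, did not start from 1 level. EIF3E, EIF3J and EIF3M were abundant from the oocyte on, at 127, 201 and 131 FPKM in IV-D oocytes, while EIF3A, EIF3B, EIF3D and EIF3F stood at 0.707, 0.438, 1.76 and 0.224. By the IV-D 8-cell stage the 10 ranged from 6.13 (EIF3B) to 501 FPKM (EIF3H). EIF3F showed the widest gap between cloned and IV-D 8-cell embryos of the eIF3 subunits in each cloned group. EIF3F read 0.224, 0.978, 0.125, 6.39, 59.7, 57.1, 120.3 and 87.9 in IV-D, 0.839, 1.301, 0.317, 3.05, 13.8, 90.3, 56.6 and 74.95 in NT-D, and 1.22, 0.896, 2.94, 12.8, 63.6, 50.1 and 58.8 in NT-LW. Its 8-cell value rested on 1284 fragments in IV-D and 279 and 220 in the clones, NT-D being 4.32-fold lower (counting interval 3.79 to 4.94) and NT-LW 4.65-fold lower (counting interval 4.02 to 5.39). By the morula the 3 groups stood at 57.1, 90.3 and 63.6 FPKM. EIF3L read 13.3, 12.5, 7.75, 29.6, 123, 104, 54.2 and 36.6 in IV-D, 9.59, 10.9, 8.89, 12.9, 58.3, 97.4, 38.04 and 36.6 in NT-D, and 15.6, 12.1, 12.6, 34.4, 81.1, 34.1 and 38.9 in NT-LW. EIF3A read 0.707, 2.07, 0.696, 10.2, 65.4, 112, 60.7 and 37.4 in IV-D, 1.41, 2.41, 1.14, 4.88, 30.1, 62.9, 39.3 and 31.1 in NT-D, and 2.01, 1.54, 8.77, 32.8, 72.2, 37.4 and 38.4 in NT-LW. EIF3L was 2.12-fold lower (counting interval 2.05 to 2.19) in NT-D and 3.58-fold lower (counting interval 3.43 to 3.74) in NT-LW at the 8-cell stage, and EIF3A 2.17-fold lower (counting interval 2.09 to 2.26) in NT-D, where its NT-LW value, -0.97 in log2(FPKM + 1), missed the limit. Both NT-D calls were lost under median-ratio scaling. EIF3H, EIF3I, EIF3E, EIF3J and EIF3M passed the rule in neither cloned 8-cell comparison.

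Of the cap-binding complex and its partners, the helicases EIF4A1 and EIF4A2, near copies of each other whose reads may be split uncertainly, had different courses. EIF4A1 read 38.4, 39.2, 14.7, 165, 500.3, 560.3, 599 and 298 in IV-D, 38.4, 34.7, 18.8, 62.3, 206, 708, 221 and 225 in NT-D, and 34.1, 44.98, 102, 278, 513, 228 and 229.8 in NT-LW. EIF4A2 read 158, 164, 155, 164, 469, 418, 518 and 408 in IV-D, 105, 71.6, 76.9, 64.3, 466, 268, 424 and 494 in NT-D, and 76.6, 89.6, 91.3, 446, 509, 384 and 322 in NT-LW. EIF4A1 began to rise at the 4-cell stage, where NT-D was 2.65-fold lower (counting interval 2.52 to 2.79) than IV-D, and EIF4A2 was already abundant in oocytes. EIF4G1, the scaffold between cap and ribosome, was under 2 FPKM in all 8 libraries up to the 2-cell stage. EIF4G1 read 0.194, 0.327, 0.180, 5.38, 15.1, 29.2, 17.8 and 8.04 in IV-D, 0.561, 1.78, 0.335, 2.88, 3.44, 20.7, 9.02 and 8.98 in NT-D, and 0.804, 0.779, 4.07, 4.47, 14.4, 9.52 and 7.43 in NT-LW. The cloned 8-cell libraries were at 3.44 and 4.47 FPKM, below their own morulae and lower than IV-D, NT-D being 4.40-fold lower (counting interval 3.95 to 4.90) and NT-LW 3.38-fold lower (counting interval 3.05 to 3.75). EIF4G2, which works without cap binding, was the most abundant scaffold in the oocyte, at 80.2 FPKM against 3.89 for EIF4G3. EIF4E, the cap-binding protein, was the 1 gene higher in NT-LW than in IV-D 8-cell embryos. EIF4E read 3.59, 13.02, 11.1, 10.2, 36.97, 22.97, 16.1 and 17.9 in IV-D, 7.20, 7.30, 13.02, 5.38, 64.8, 18.3, 16.9 and 17.5 in NT-D, and 5.30, 15.3, 9.44, 102, 54.2, 28.7 and 25.3 in NT-LW. NT-LW was 2.76-fold higher (counting interval 2.67 to 2.86) than IV-D there, and 2.36-fold higher (counting interval 2.26 to 2.47) at the morula, where the call was lost under median-ratio scaling, while the NT-D 8-cell library was 1.75-fold higher in FPKM, a difference in log2(FPKM + 1) of 0.79, under the limit.

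The repressors that hold EIF4E had their highest levels in blastocysts. EIF4EBP2 read 0.00660, 0.144, 0.141, 1.15, 1.12, 3.72, 4.33 and 8.31 in IV-D, 0.0696, 0.409, 0.202, 1.02, 1.72, 6.42, 8.71 and 8.05 in NT-D, and 0.207, 0.611, 3.26, 2.09, 3.36, 11.2 and 8.15 in NT-LW. EIF4EBP1 read 9.46, 7.23, 2.11, 4.55, 43.1, 36.3, 48.3 and 208 in IV-D, 14.5, 33.7, 8.09, 9.42, 25.6, 106, 144 and 174 in NT-D, and 21.5, 16.9, 11.3, 21.2, 54.7, 172 and 117 in NT-LW. EIF4EBP2 reached at most 11.2 FPKM, and EIF4EBP1 had 208 FPKM in IV-D TE but 48.3 in IV-D IT. EIF4ENIF1, which carries EIF4E into the nucleus and into stores of silent mRNA, was highest at the 1-cell or 2-cell stage. EIF4ENIF1 read 23.2, 58.98, 22.5, 13.6, 3.84, 4.35, 3.38 and 3.70 in IV-D, 39.7, 85.2, 37.3, 20.4, 8.67, 17.4, 3.83 and 3.90 in NT-D, and 48.8, 62.1, 25.6, 6.96, 5.85, 3.95 and 3.65 in NT-LW. The NT-D morula again stood out, 4.01-fold higher (counting interval 3.54 to 4.55) than IV-D, in the library with raised oocyte markers, whose part was not tested. EIF4E3, a variant cap-binding protein, likewise fell from 18.8 FPKM at the IV-D 1-cell stage to 0.457 at the 4-cell stage. EIF4H read 10.2, 31.5, 9.84, 23.5, 96.8, 99.9, 47.9 and 28.2 in IV-D, 24.5, 40.9, 13.7, 10.6, 41.9, 60.3, 30.1 and 21.1 in NT-D, and 24.4, 32.2, 17.8, 30.02, 81.5, 45.999 and 34.5 in NT-LW. Over the 23 libraries EIF4A3, the helicase of the exon junction complex, ranged from 12.3 to 294 FPKM, EIF4B, a helicase partner, from 2.19 to 37.96, EIF4E2, a cap-binding repressor, from 2.37 to 53.2, and EIF4G3, another scaffold, from 1.13 to 8.64. EIF4H, which helps the helicase, was 2.31-fold lower (counting interval 2.20 to 2.43) in NT-D and 3.22-fold lower (counting interval 3.03 to 3.43) in NT-LW 8-cell embryos than in IV-D, the NT-D call being lost under median-ratio scaling.

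EIF6, which keeps the large subunit apart from the small one (chr17:38638295-38643918, minus strand), had the largest rise of the 71 genes from the 2-cell to the 4-cell stage in IV-D. EIF6 read 1.14, 2.88, 5.84, 306, 304, 162, 157 and 199 in IV-D, 2.12, 9.89, 8.85, 48.8, 257, 171, 184 and 199 in NT-D, and 8.99, 8.86, 105, 178, 201, 169 and 166 in NT-LW. IV-D 4-cell embryos already held the 8-cell level, whereas NT-D was 6.28-fold lower (counting interval 5.94 to 6.65) and NT-LW 2.91-fold lower (counting interval 2.81 to 3.02). EIF5A2, the less common form of the hypusine-bearing factor eIF5A, was highest at the IV-D 4-cell stage and then declined. EIF5A2 read 14.3, 19.6, 21.3, 48.01, 27.1, 12.7, 3.97 and 1.99 in IV-D, 12.3, 12.4, 15.5, 16.9, 16.1, 12.9, 2.42 and 2.17 in NT-D, and 13.6, 16.7, 19.97, 9.49, 7.60, 1.89 and 2.91 in NT-LW. At the 4-cell stage NT-D was 2.85-fold lower (counting interval 2.66 to 3.05) and NT-LW 2.40-fold lower (counting interval 2.27 to 2.55) than IV-D. The release factor ETF1, which reads the stop codon, and its GTPase partner GSPT1 both rose at the 4-cell stage in each group. ETF1 read 0.764, 2.74, 0.551, 29.1, 83.04, 73.2, 26.4 and 34.9 in IV-D, 2.45, 2.89, 0.752, 8.58, 46.6, 61.7, 36.9 and 27.97 in NT-D, and 2.11, 1.67, 18.2, 46.5, 53.9, 34.4 and 26.3 in NT-LW. GSPT1 read 3.57, 4.67, 2.59, 36.05, 70.1, 66.6, 34.5 and 28.9 in IV-D, 7.42, 11.8, 4.67, 16.1, 42.2, 50.98, 33.7 and 33.6 in NT-D, and 9.40, 8.62, 25.1, 31.7, 55.1, 44.1 and 46.5 in NT-LW. Both were lower in NT-D than in IV-D 4-cell embryos, ETF1 3.39-fold lower (counting interval 3.13 to 3.67) and GSPT1 2.24-fold lower (counting interval 2.09 to 2.40), whereas the NT-LW 4-cell values, 18.2 and 25.1 FPKM, lay between those of NT-D and IV-D.

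Of the elongation factors, EEF2 and EEF1D were lower in cloned than in IV-D 8-cell embryos. EEF1B2, an exchange factor of eEF1A, and EEF1E1, which sits in the synthetase complex, had started to rise by the 4-cell stage, at 27.5 and 45.6 FPKM in IV-D, and neither passed the rule between clones and IV-D at the 8-cell stage. EEF2, the translocase, and EEF1D, the other exchange factor, rose at the 8-cell stage in IV-D. EEF2 had also risen from 2-cell to 4-cell in IV-D, though not under median-ratio scaling. At the 8-cell stage EEF1D rose in NT-D and NT-LW too, from 0.407 to 8.66 and from 0.695 to 9.58 FPKM. Both genes rose from 8-cell to morula in NT-D and NT-LW, EEF1D in NT-LW not under median-ratio scaling. EEF2 read 4.10, 8.39, 2.92, 8.74, 96.6, 136, 102 and 129 in IV-D, 7.58, 17.97, 3.60, 12.9, 24.2, 133, 107 and 99.97 in NT-D, and 13.5, 9.12, 14.995, 28.9, 86.5, 81.03 and 79.9 in NT-LW. EEF1D read 0.438, 1.08, 0.344, 0.272, 35.2, 37.9, 45.1 and 33.2 in IV-D, 0.869, 1.18, 0.357, 0.407, 8.66, 48.3, 23.4 and 24.5 in NT-D, and 1.07, 0.603, 0.695, 9.58, 24.8, 30.1 and 25.9 in NT-LW. In 8-cell embryos EEF2 was 3.99-fold lower (counting interval 3.79 to 4.19) in NT-D and 3.35-fold lower (counting interval 3.18 to 3.52) in NT-LW, and EEF1D 4.07-fold lower (counting interval 3.68 to 4.51) and 3.68-fold lower (counting interval 3.32 to 4.09). At the morula EEF2 stood at 136, 133 and 86.5 FPKM in IV-D, NT-D and NT-LW, and passed the rule in neither comparison.

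**Figure D4:**
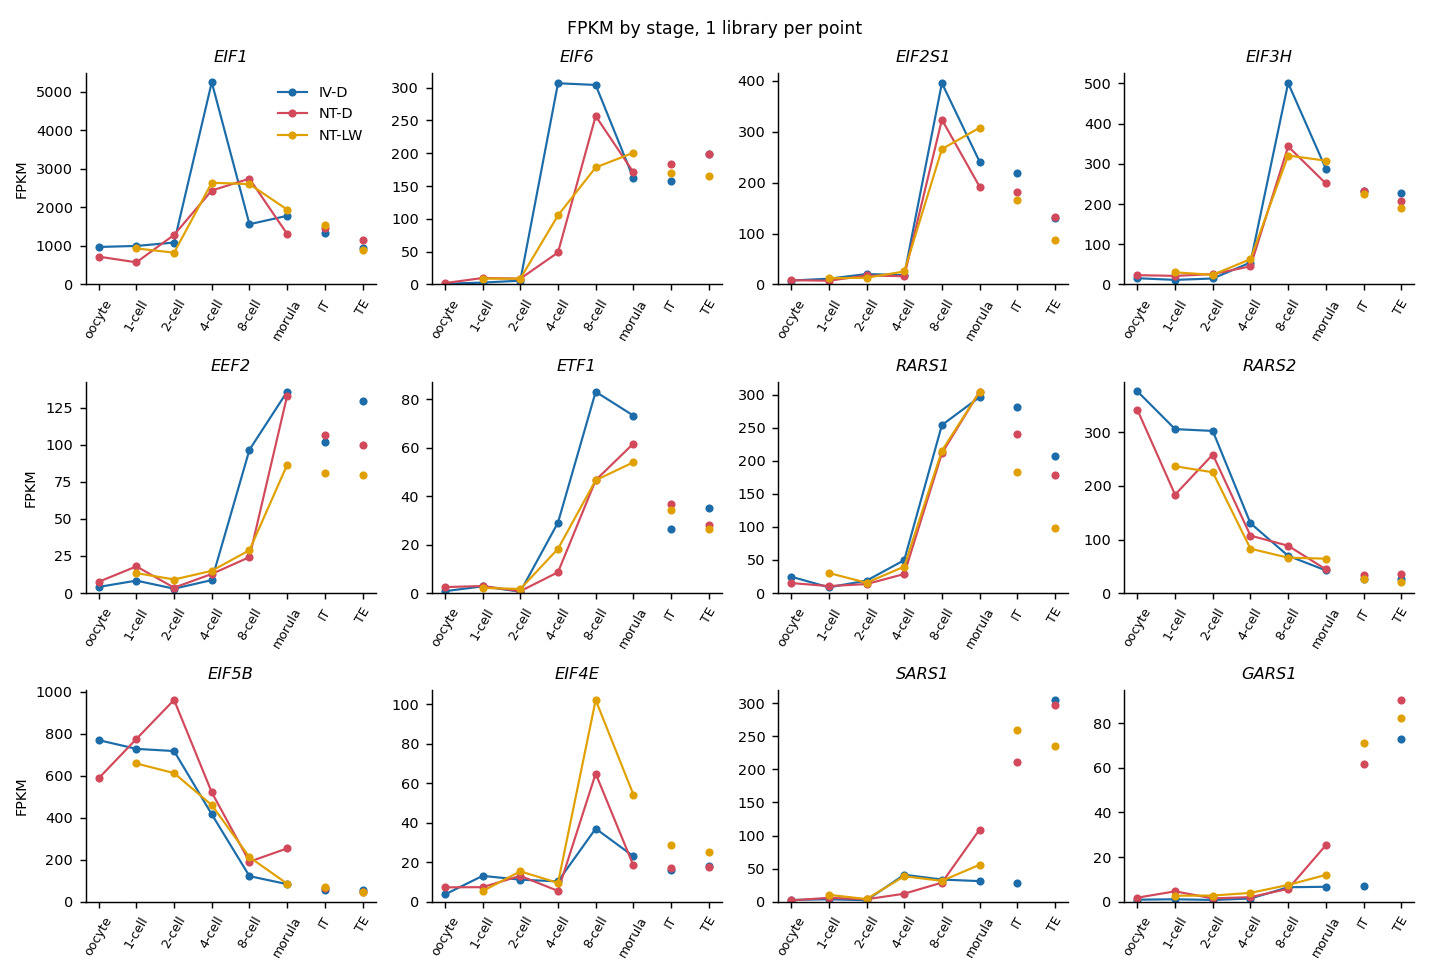
FPKM (linear axes) of 12 genes by stage in IV-D (blue), NT-D (red) and NT-LW (yellow), each point 1 library, with lines joining oocyte to morula and the blastocyst parts IT and TE left unjoined. EIF6 and EIF1 stand highest in the IV-D 4-cell library, EEF2 lags in both cloned 8-cell libraries, and SARS1 and GARS1 are low in IV-D IT alone among the blastocyst libraries.

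Cytosolic synthetases were low in oocytes and early cleavage, with exceptions. LARS1 and TARS1, for leucine and threonine, held 41.7 and 70.8 FPKM in IV-D oocytes, while VARS1 (valine), QARS1 (glutamine), HARS1 (histidine), AARS1 (alanine), YARS1 (tyrosine) and GARS1 (glycine) were under 1 FPKM and CARS1 (cysteine) had no fragment. TARS1 read 70.8, 41.3, 35.97, 37.2, 98.6, 80.2, 62.9 and 189.9 in IV-D, 34.9, 31.2, 36.7, 31.2, 40.4, 156, 170.2 and 222 in NT-D, and 42.7, 33.8, 16.9, 22.98, 123, 128 and 123 in NT-LW. KARS1 read 26.1, 31.5, 10.04, 6.15, 73.8, 107, 120.4 and 82.2 in IV-D, 32.6, 52.1, 19.8, 10.9, 34.7, 102, 75.2 and 79.9 in NT-D, and 42.8, 25.2, 19.6, 28.6, 98.5, 72.04 and 59.4 in NT-LW. KARS1, for lysine, was at its lowest at the 4-cell stage in each group, and TARS1 rose at the 8-cell stage in IV-D, though not under median-ratio scaling, and at the morula stage in clones. At the 8-cell stage TARS1 was 2.44-fold lower (counting interval 2.36 to 2.52) in NT-D and 4.29-fold lower (counting interval 4.11 to 4.48) in NT-LW than in IV-D. VARS1 was 4.07 FPKM in IV-D 8-cell embryos, on 317 fragments, and 0.192 and 0.629 in NT-D and NT-LW, on 14 and 39. The lowest and highest of 23 libraries were 16.1 and 67.4 FPKM for LARS1, 5.37 and 205 FPKM for NARS1 (asparagine), 0.0890 and 18.96 FPKM for QARS1, 0.607 and 76.2 FPKM for IARS1 and 0.956 and 71.4 FPKM for WARS1 (tryptophan). The low end was in an oocyte or cleavage library up to the 4-cell stage for each of these 5. HARS1 was highest in IV-D IT. HARS1 read 0.333, 0.810, 0.0650, 2.76, 6.74, 16.1, 25.7 and 6.47 in IV-D, 0.431, 0.786, 0.186, 1.24, 3.10, 11.1, 4.14 and 7.09 in NT-D, and 1.32, 0.350, 0.449, 2.17, 16.9, 5.44 and 3.94 in NT-LW. IV-D IT was above the other blastocyst libraries for HARS1, NT-D IT being 6.21-fold lower (counting interval 5.41 to 7.17) and NT-LW IT 4.73-fold lower (counting interval 4.18 to 5.37).

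Cytosolic and mitochondrial enzymes of the same amino acid could run in opposite directions. RARS1 and RARS2 charge arginine tRNA in the cytosol and in mitochondria. RARS1 read 24.7, 8.66, 18.7, 49.7, 254, 296, 282 and 207 in IV-D, 15.1, 10.5, 13.6, 28.7, 211, 305, 241 and 179 in NT-D, and 30.3, 15.5, 39.9, 215, 304, 183 and 99.04 in NT-LW. RARS2 read 377, 306, 303, 130.5, 69.5, 42.3, 25.6 and 25.5 in IV-D, 342, 184, 259, 107, 88.3, 44.3, 34.3 and 36.4 in NT-D, and 237, 226, 82.9, 65.99, 64.2, 26.8 and 19.8 in NT-LW. RARS2 exceeded RARS1 in every library up to the 4-cell stage and lay under it from the 8-cell stage on. For isoleucine, IARS1 went from 3.77 to 37.3 FPKM at the IV-D 4-cell to 8-cell step while IARS2 fell. IARS2 read 5.38, 7.28, 3.12, 5.12, 0.565, 1.68, 1.69 and 4.10 in IV-D, 7.63, 12.9, 5.53, 10.02, 1.69, 2.64, 2.34 and 3.46 in NT-D, and 11.4, 7.97, 14.4, 1.90, 1.99, 2.49 and 2.59 in NT-LW. In contrast the asparagine enzymes rose together at that step, NARS1 from 37.2 to 161 and NARS2 from 1.58 to 8.61 FPKM. WARS2, for tryptophan, stayed between 10.03 and 32.5 FPKM. WARS2 read 15.5, 11.1, 11.5, 23.3, 16.9, 14.1, 17.9 and 31.6 in IV-D, 18.3, 12.9, 10.9, 15.5, 32.5, 12.6, 20.2 and 21.1 in NT-D, and 15.3, 10.03, 15.8, 24.6, 13.4, 19.5 and 13.1 in NT-LW. FARS2, for phenylalanine, ranged from 0.0757 to 9.98 FPKM, and HARS2, for histidine, from 0.109 to 3.77. None of the 7 mitochondrial enzymes in the table passed the rule between cloned and IV-D morulae or IT.

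In blastocysts several synthetases and EIF4EBP1 were lower in IV-D IT than in IV-D TE and than in both parts of the clones. Between IT and TE of IV-D 8 of 71 genes were higher in TE and 7 lower (8.1% and 14.9% of all genes), shares near those of all genes, and the 8 were SARS1, GARS1, CARS1, TARS1, WARS1, IARS1, EIF4EBP1 and EIF2S2. SARS1 read 2.41, 3.51, 1.99, 40.6, 33.3, 30.9, 28.8 and 305 in IV-D, 1.69, 5.70, 3.47, 11.9, 28.7, 109, 212 and 297 in NT-D, and 10.2, 3.80, 38.3, 31.4, 55.7, 259 and 235 in NT-LW. GARS1 read 0.844, 1.03, 0.724, 1.36, 6.43, 6.63, 7.002 and 72.95 in IV-D, 1.75, 4.59, 1.43, 1.99, 5.69, 25.3, 61.7 and 90.4 in NT-D, and 2.63, 2.70, 3.89, 7.47, 11.96, 71.3 and 82.6 in NT-LW. CARS1 read 0, 0.0801, 0, 0.559, 1.27, 1.24, 1.83 and 9.72 in IV-D, 0.0730, 0.110, 0.0245, 0.147, 0.253, 10.9, 7.03 and 6.48 in NT-D, and 0.239, 0.0875, 0.764, 0.704, 2.31, 12.2 and 16.9 in NT-LW. SARS1, for serine (chr4:110857067-110874712), was 10.6-fold higher (counting interval 9.97 to 11.2) in TE than in IT of IV-D, GARS1 (chr18:42311711-42352201) 10.4-fold higher (counting interval 9.63 to 11.3) and CARS1 (chr2:2119576-2163378) 5.32-fold higher (counting interval 4.15 to 6.88). For each of these 3 genes the IV-D IT library lay below the other 5 IT and TE libraries. Between the parts of cloned blastocysts the count was 0 higher and 0 lower in NT-D (0.302% and 3.39% of all genes) and 0 and 0 in NT-LW (0.93% and 4.01%). Set against IV-D IT, 8 genes were higher and 5 lower in NT-D IT (7.81% and 12.7%), SARS1 being 7.36-fold higher (counting interval 6.93 to 7.82) and GARS1 8.81-fold higher (counting interval 8.14 to 9.54). In NT-LW IT 10 were higher and 7 lower (7.17% and 11.3%), with SARS1 8.998-fold higher (counting interval 8.48 to 9.55) and GARS1 10.2-fold higher (counting interval 9.42 to 11.02). These splits moved with the scaling: the IV-D step gave 10 higher and 3 lower under median-ratio scaling (9.79% and 12.5% of all genes), and with each library set to 1 sum NT-D IT gave 7 and 11 (7.53% and 16.5%) and NT-LW IT 8 and 10 (7.29% and 14.5%). These comparisons and the IV-D step share the IV-D IT library. Lower in each cloned IT than in IV-D IT were HARS1, EIF4A1, EIF4A3 and EIF3F, the last in NT-D not under median-ratio scaling. Inner cell mass markers moved with this library: the 4 of 6 in the table summed to 98.5 FPKM in IV-D IT, 44.9 in NT-D IT and 50.7 in NT-LW IT, and to 21.5 to 37.4 in the 3 TE libraries, with NANOG at 0 in each TE. All 4 were at 1 FPKM or more in each IT, but 1 of them in IV-D TE and in NT-D TE and 2 in NT-LW TE. PDGFRA was at 11.6 FPKM in IV-D IT and 1.66 and 2.22 in the cloned IT libraries. The 7 trophectoderm markers summed to 1424 in IV-D IT, 1261 in NT-D IT and 1737 in NT-LW IT. In TE they summed to 1348 in IV-D, 1976 in NT-D and 2922 in NT-LW. The part of cell makeup in these differences was not tested.

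In NT-D morulae, where 6 of 71 genes against 17.1% of all genes were higher, CARS1 was 8.81-fold higher (counting interval 6.71 to 11.8) than in IV-D, GARS1 3.81-fold higher (counting interval 3.51 to 4.15), SARS1 3.52-fold higher (counting interval 3.32 to 3.74) and EIF4EBP1 2.92-fold higher (counting interval 2.74 to 3.10). That library held 172 FPKM of oocyte markers against 6.88 in IV-D, whose part was not tested. None of these 4 passed the rule in NT-LW morulae, where SARS1 read 55.7 and GARS1 11.96 FPKM. AARS1 read 46.9 FPKM in IT and 70.7 in TE of IV-D, 52.8 and 77.1 in NT-D, and 78.04 and 111 in NT-LW. YARS1 read 13.6, 26.4, 17.1, 23.9, 17.6 and 14.9 in those 6 libraries in turn, and neither of them passed the rule between parts of any group.

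**Figure D5:**
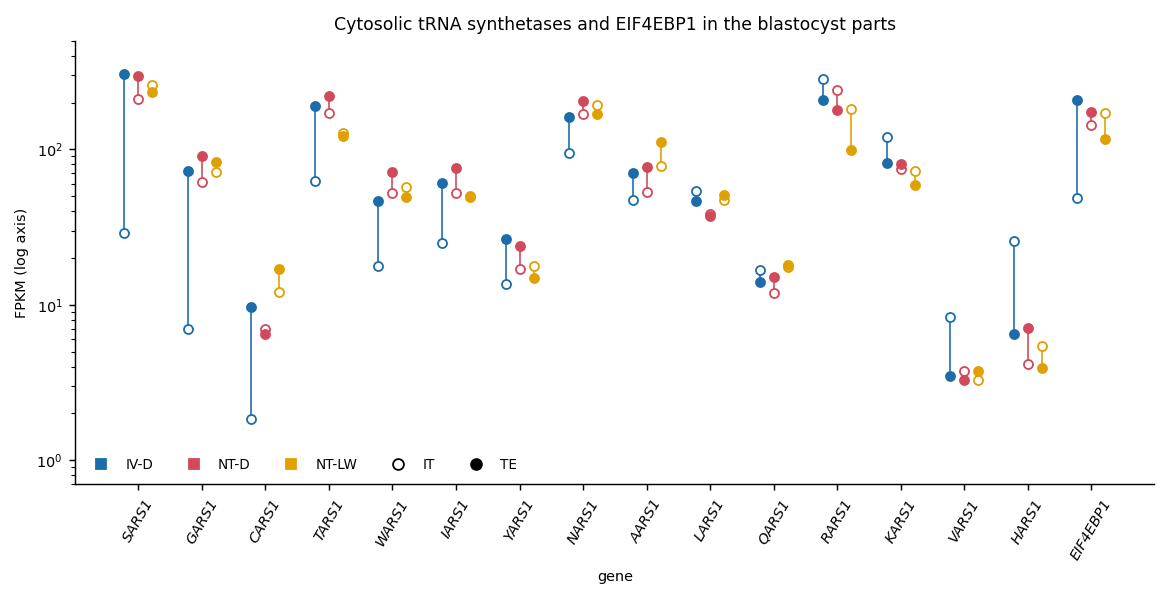
FPKM (log axis) of 15 cytosolic tRNA synthetases and of EIF4EBP1 in IT (open circles) and TE (filled circles) of IV-D (blue), NT-D (red) and NT-LW (yellow) blastocysts, 1 library per circle, ordered from left by the IV-D difference between TE and IT with EIF4EBP1 last. For SARS1, GARS1 and CARS1 the open blue circle lies below the other 5 circles, and for HARS1 above them.

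Genes of amino acid supply often carry in their promoters the C/EBP-ATF response element TGATGCAA, which binds factors such as ATF4, so the promoters of the 71 genes were searched for it. Of 67 genes placed on the RefSeq annotation of Sscrofa11.1, 5 held it on either strand within 250 bases before and 50 after the gene start (7.46%), against 133 of 19506 promoters of all genes (0.682%). The 5 were AARS1, CARS1, TARS1, YARS1 and EIF3I, shown here as 30 bases each, read 5′ to 3′ on the strand of the gene, with the element in capitals (TTGCATCA is the same element read on the other strand) and positions counted from the first base of the gene.
AARS1 (chr6:13321504-13321533, minus strand, first matching base at -99): tttcttggccaTTGCATCAgccaatttagt
CARS1 (chr2:2163329-2163358, minus strand, first matching base at 37): acttccggggcggtggTTGCATCAgattct
TARS1 (chr16:19455308-19455337, plus strand, first matching base at 26): gcgctttcctaTTGCATCAgctggcacgag
YARS1 (chr6:89118788-89118817, minus strand, first matching base at 33): gacgagctcagcTGATGCAAcctaactgga
EIF3I (chr6:88695743-88695772, plus strand, first matching base at -172): caggttcggggTTGCATCAggggtcgggtt

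The AARS1 and EIF3I matches lie before the gene start and those of CARS1, TARS1 and YARS1 within the first 50 bases of the transcribed sequence. CARS1 and TARS1 were among the 8 genes higher in IV-D TE than in IT, while AARS1, YARS1 and EIF3I, at 125 FPKM in IT and 89.1 in TE, were not. SARS1, GARS1, WARS1, IARS1, EIF4EBP1 and EIF2S2, the other 6, held no match in this window. The 250 bases before the AARS1 gene (chr6:13321424-13321673, minus strand, read 5′ to 3′), shown because they hold this element together with an E-box CACGTG and CCAAT boxes, are, with the element again in capitals:
AARS1 upstream: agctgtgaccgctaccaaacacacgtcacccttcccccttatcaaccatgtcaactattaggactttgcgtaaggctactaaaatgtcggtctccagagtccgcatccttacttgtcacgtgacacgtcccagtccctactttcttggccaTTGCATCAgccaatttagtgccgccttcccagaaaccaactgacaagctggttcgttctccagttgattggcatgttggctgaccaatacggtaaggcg

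Of the other motifs searched, the ETS motif CCGGAAG was in 21 of 67 promoters (31.3%) against 11% of all, the NRF1 motif in 10 (14.9%) against 4.26%, the E-box CACGTG in 11 (16.4%) against 7.93%, and CCAAT in 26 (38.8%) against 35.4%. The ETS motif was held by 14 of the 42 placed genes whose late libraries all lay above the early ones, 2 of the 5 with the opposite order and 5 of the other 20. A match is a run of letters and does not show that a factor binds. The nearest neighbours among the 67 genes were EIF2B5 and EIF4G1 on chromosome 13, 133161 bases apart.

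Genes of the pathway outside the symbol rule were read from 5 further lists, against 29.2% of all genes higher and 10.4% lower at IV-D 2-cell to 4-cell, and 32.6% and 26.2% at 4-cell to 8-cell. The poly(A) group moved in both directions: at IV-D 4-cell to 8-cell 3 of 10 rose, about the share of all genes, and 7 fell. PABPC1, the general poly(A)-binding protein, went from 14.3 to 110.3 FPKM, while its embryonic counterpart PABPC1L went from 3.46 to 0.133 and CPEB1, which controls polyadenylation of stored mRNA, from 6.33 to 0.0345. PAIP1, a partner of the poly(A)-binding protein, fell from 1686 FPKM in IV-D 2-cell embryos to 36.7 at the 8-cell stage, where the clones held 148 and 178. Of 14 genes that control initiation 8 rose and 0 fell from IV-D 2-cell to 4-cell, DENR from 0.655 to 76.9 FPKM and its partner MCTS1 from 0.0838 to 30.4. MCTS1 was back at 0.656 by the 8-cell stage, and its cloned 4-cell values were 2.82 and 1.71. PPP1R15A, which takes the phosphate off eIF2, was at 28.96 FPKM in IV-D IT and 1.17 to 3.69 in the other 5 blastocyst libraries. Of 8 mitochondrial translation factors 5 rose and 0 fell at IV-D 4-cell to 8-cell, and of 5 genes of elongation, recycling and rescue 2 rose and 1 fell, near the shares of all genes, ABCE1, the recycling ATPase, going from 24.3 to 374 FPKM. Of 4 genes of the synthetase complex and remaining synthetases 3 rose at that step, and EPRS1, the joined glutamate and proline enzyme, fell from 221 FPKM in IV-D oocytes to 26.99 at the 8-cell stage. At the cloned 8-cell stage 3 of the 10 poly(A) genes were higher and 1 lower than in IV-D in NT-D (9.38% and 15.1% of all genes), and 3 and 1 in NT-LW (14.5% and 15.3%), in libraries with 193 and 239 FPKM of oocyte markers against 19.4 in IV-D, whose part was not tested.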

How the data were processed

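The authors made PolyA libraries with SMART-Seq v4, aligned reads to Sscrofa11.1 with HISAT2 2.0.4 and counted genes with HTSeq 0.9.1, and the deposited table gives FPKM for each gene and library. How the genes of the table were selected is not given in the sources used here. Members were taken by symbol, and the members, role lists, marker lists and pathway lists were chosen with earlier results of these data known. Whole fragments were recovered from the FPKM steps for 8602 of 8603 genes, within 0.02 of a whole number, and gave the depths and the exact binomial intervals. Genes given in every library were the 3 with the largest change each way in 10 comparisons, at 10 FPKM or more in one of the pair, plus a set of core factors. The naming of other genes was made with their values in view. A change was called by the fold rule. Alternatives were a pseudocount of 0.1, no minimum FPKM or one of 5, 2 other scalings, an added binomial test, and, chosen after the data were seen, the IV-D 1-cell library left out. Scripts ran in Python 3.11.15 with pandas 2.3.3 and SciPy 1.17.1. Single values of 2 of the 71 genes are not reported here, and counts and medians over gene groups include them.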

Additional observations from a re-analysis of the deposited data

Results flagged for a closer look

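LARS1, the cytosolic leucine enzyme, moved in opposite directions between oocyte and 1-cell libraries. In IV-D it went from 41.7 to 16.1 FPKM, a difference in log2(FPKM + 1) of -1.32, in NT-D from 22.8 to 39.8 FPKM, a difference of 0.78, and in NT-LW from the same 22.8 to 51.1 FPKM, a difference of 1.13. Each step has 1 library on either side, both cloned steps start from the same recipient oocytes, and the difference between groups was not tested. The fibroblast genes summed to 65.02 FPKM in the IV-D 1-cell library, 90.5 in that of NT-D and 91.7 in that of NT-LW. Their part in this was not tested.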

How the results depend on the processing

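No paired analysis was possible because each condition has 1 library, so that the groups compared share fewer than 2 replicate numbers. Of the 44 counts, all 44 stayed within 1.5 times under a minimum FPKM of 5 and with the binomial test added. Both settings can only remove calls, and the binomial test covers counting error alone. Dropping the minimum FPKM could change no count, because a difference above 1 in log2(FPKM + 1) already needs a larger FPKM above 1. With a pseudocount of 0.1, IV-D oocyte to 1-cell had 10 higher, IV-D 8-cell to morula 5 higher, NT-D against IV-D 2 higher at the 4-cell, 3 higher at the 8-cell and 8 lower at the IT stage, NT-LW against IV-D 4 higher at the 8-cell and 2 lower at the morula stage, and NT-LW IT to TE 1 lower. With each library set to 1 sum, IV-D had 0 higher from 1-cell to 2-cell, 1 lower from 2-cell to 4-cell and 5 lower from 8-cell to morula, NT-D and NT-LW 5 and 1 lower from 8-cell to morula, NT-D against IV-D 0 higher at the 8-cell and 11 lower at the IT stage, NT-LW 2 higher and 31 lower at the 8-cell stage, and NT-LW IT to TE 1 lower. Under median-ratio scaling, IV-D had 6 higher and 5 lower from 1-cell to 2-cell, 10 lower from 2-cell to 4-cell and 3 lower from IT to TE, NT-D 7 lower from 2-cell to 4-cell and 14 lower from 8-cell to morula, NT-LW 7 lower from 8-cell to morula, NT-D against IV-D 1 higher at the 4-cell, 4 higher and 13 lower at the 8-cell and 3 lower at the morula stage, and NT-LW 2 higher at the 8-cell and 0 higher and 2 lower at the morula stage. Median differences of the 71 genes changed sign under median-ratio scaling for NT-D IT to TE (0.056), NT-LW IT to TE (0.081) and NT-LW against IV-D morulae (-0.211), and with 1 sum for NT-D IT to TE (0.0146). Why these counts moved was not tested. Without the IV-D 1-cell library, an alternative chosen after the data were seen, IV-D oocyte to 2-cell gave 3 higher and 5 lower.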
